A study of Drosophila melanogaster with 3 samples.

Results

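The Enhancer of split complex, E(spl)-C, is a cluster of small genes on chromosome arm 3R of Drosophila melanogaster that respond to Notch signalling. Its 10 members described here were taken by name from the gene annotation, out of 13945 protein-coding genes on the main chromosome arms. The 7 basic helix-loop-helix (bHLH) members were E(spl)mdelta-HLH, E(spl)mgamma-HLH, E(spl)mbeta-HLH, E(spl)m3-HLH, E(spl)m5-HLH, E(spl)m7-HLH and E(spl)m8-HLH. The 3 Bearded family members were E(spl)m2-BFM, E(spl)m4-BFM and E(spl)malpha-BFM. Below, the prefix E(spl) and the class suffix are left out where the meaning is plain. Chromatin immunoprecipitation sequencing (ChIP-seq) of Neu2, which has a ZAD domain and zinc fingers, was done in whole embryos of mixed sex aged 2 to 4 h. The flies were of strain Neu2-GFP, a transgenic line in which GFP sits at the C-terminus of Neu2, and GFP was the target of the precipitating antibody. A single group of 3 libraries, labelled as biological replicates, was available, so no groups of samples could be compared. In whole embryos a site bound in few cells and a site bound weakly in many cells cannot be told apart.

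When Notch is activated, its intracellular domain joins the DNA-binding protein Su(H) and turns on E(spl) genes. The bHLH members are transcriptional repressors that recruit the corepressor Groucho, the product of gro, which lies beside m8, and in the embryonic neuroectoderm they keep cells next to a neuroblast from becoming neuroblasts. Bearded family proteins are small inhibitors of Neuralized, the ubiquitin ligase that acts on the ligand Delta.

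The members ran from 25997621 to 26041008 on 3R (dm6 build), a length of 43.4 kb. With 2 kb added at each end, the span covered 47.4 kb, from 25995621 to 26043008, and overlapped 21 annotated genes. Of these, 15 were protein-coding. The 5 that are not members were gro, E(spl)m6-BFM (a further Bearded family gene), Kaz-m1 (a Kazal-type protease inhibitor gene that lies within the complex), CG43116 and the 3′ end of Nf1, the fly homologue of the neurofibromin gene. The other 6 genes were noncoding RNAs.

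The authors' optimal list, which holds the peaks past their threshold on the irreproducible discovery rate (IDR), had 3 peaks in the span. Each call has a signal, the authors' own measure of peak strength, and a summit, the position of its maximum. The peaks lay beside CG43116 and mdelta, upstream of m7, and at an internal start of gro. The sequences at their summits are given first, with the strongest call by a member that missed the list, that of m3. The m5 and m8 upstream regions follow as examples that hold several of the known sequence words, as regions of other members also do. All are from the RefSeq Release 6 genome, the dm6 build, written 5′ to 3′. Capitals mark matches, on either strand, to 14 words spelled out further below. The m7 region at chr3R:26036638-26036937 (plus strand) holds the optimal summit and a weaker summit, and its capitals are 2 copies of CAGGTG, an E box. The gro peak is at chr3R:26042494-26042594 (plus strand), the CG43116 peak at chr3R:25996598-25996698 (minus strand, as CG43116 is read) and the m3 call at chr3R:26021288-26021388 (plus strand). The upstream regions reach 250 bp from the transcription start site (TSS), for m5 at chr3R:26029736-26029985 (minus strand) and for m8 at chr3R:26039990-26040239 (plus strand).
E(spl)m7-HLH upstream region: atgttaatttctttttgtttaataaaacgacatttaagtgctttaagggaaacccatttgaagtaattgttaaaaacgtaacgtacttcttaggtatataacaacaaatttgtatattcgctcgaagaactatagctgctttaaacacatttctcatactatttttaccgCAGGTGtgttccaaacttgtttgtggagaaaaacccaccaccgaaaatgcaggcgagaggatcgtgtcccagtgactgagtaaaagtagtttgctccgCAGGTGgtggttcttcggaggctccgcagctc
gro peak summit: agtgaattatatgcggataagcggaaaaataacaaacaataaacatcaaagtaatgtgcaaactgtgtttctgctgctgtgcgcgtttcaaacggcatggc
CG43116 peak summit: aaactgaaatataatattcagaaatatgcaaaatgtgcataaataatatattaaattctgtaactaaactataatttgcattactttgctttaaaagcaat
E(spl)m3-HLH call summit: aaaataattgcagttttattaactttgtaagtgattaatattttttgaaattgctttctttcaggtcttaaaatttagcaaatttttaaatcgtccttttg
E(spl)m5-HLH upstream: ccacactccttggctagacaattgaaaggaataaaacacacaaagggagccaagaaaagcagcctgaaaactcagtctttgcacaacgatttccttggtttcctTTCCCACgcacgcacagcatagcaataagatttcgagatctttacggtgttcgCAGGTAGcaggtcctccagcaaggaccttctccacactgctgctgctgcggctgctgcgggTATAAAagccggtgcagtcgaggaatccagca
E(spl)m8-HLH upstream: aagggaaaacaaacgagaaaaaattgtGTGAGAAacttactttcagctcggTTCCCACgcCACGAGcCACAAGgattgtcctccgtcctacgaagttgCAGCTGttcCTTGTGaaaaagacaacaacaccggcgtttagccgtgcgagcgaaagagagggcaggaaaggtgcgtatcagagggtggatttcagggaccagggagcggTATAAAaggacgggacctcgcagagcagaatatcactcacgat

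The whole complex was rich in calls. The pooled relaxed list, which holds peaks and background together for the IDR procedure, had 30 of its 30000 calls in the span. That was 63.3 calls per 100 kb, against 22.5 on all of 3R and 22.4 on the 6 main arms. Among 2822 consecutive windows of the span's length on the main arms the median was 10 pooled calls and the maximum 37. At least 30 were found in 15 of these windows, or 0.532%. The 3 optimal peaks of the span were matched or exceeded in 103 windows, or 3.65%, and the median window had 0. Those of CG43116 and gro lie in the added flanks, and 1 optimal peak remained with no flank.

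The excess was uneven across the replicates. Replicate 1 had 18 calls in the span, replicate 2 had 32 and replicate 3 had 26, and every replicate list held 30000 calls. Windows with at least as many calls made up 10.3% in replicate 1, 0.638% in replicate 2 and 1.52% in replicate 3. The median window held 10 calls in each library. The complex thus stood above the median window in all libraries, and least so in replicate 1.

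The 30 pooled calls had somewhat higher signals than the list as a whole. They ran from 27.38 to 162.1 with a median of 44.65, against a median of 35.6 over the whole list. A deposited q-value under 0.05 was given to 9 of the 30, or 30%, beside 11.9% of all pooled calls on the main arms. Those 9 calls lay by mdelta and CG43116, at m2, at m3, between m3 and m4, at m5, at m7 (both calls) and at gro (both calls).

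**Figure D1:**
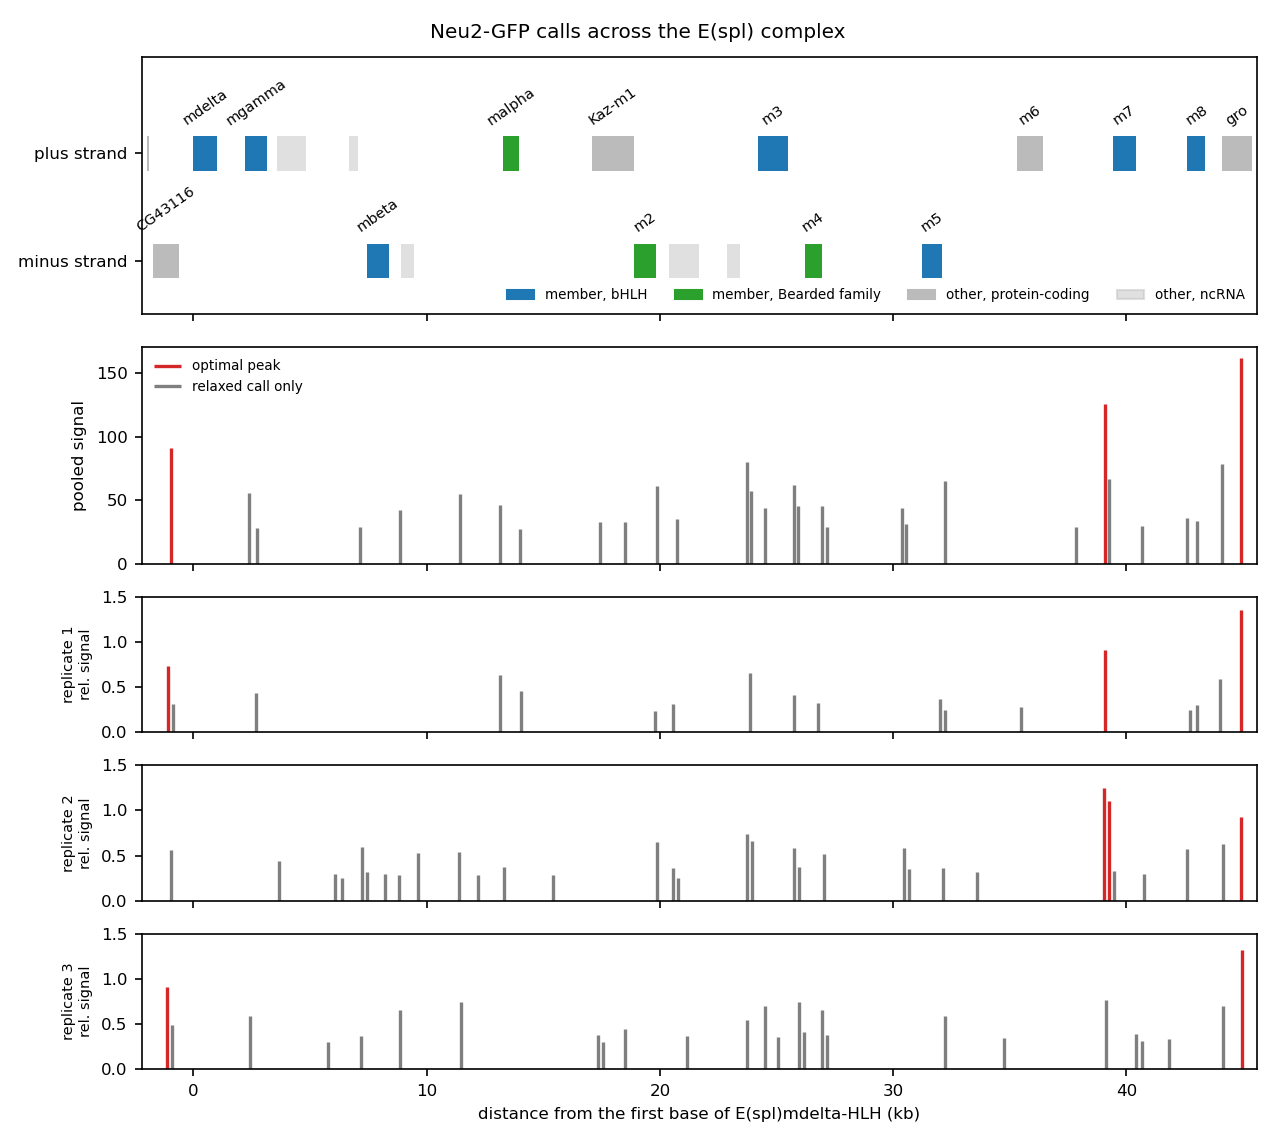
Genes of the span by strand (top), signal of the 30 pooled calls (second row, optimal peaks in red) and signal of the calls of each replicate relative to its median at all optimal peaks (lower rows, red for the 1471 strongest calls of that replicate), against distance in kb from the first base of E(spl)mdelta-HLH. The 3 optimal peaks stand at the left edge, upstream of m7 and in gro, and pooled calls of lower signal lie across the complex except around m6.

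Most pooled calls in the complex sat at promoters. A promoter here means a position within 500 bp of a protein-coding TSS, and 19 of the 30 pooled summits were at one, or 63.3%, against 24.5% of all pooled summits. Among all optimal peaks the promoter share was 54.0%. Another 9 of the 30 were intergenic, or 30%, against 18.6% of all pooled summits, 1 was in a 3′ UTR and 1 in another exon. None was in a coding exon or an intron outside promoters, classes that held 18.0% and 31.3% of all pooled summits. How much of the span's sequence belongs to those classes was not measured, so no depletion is read from their absence. Promoters also took up more of the sequence, 30.4% of the span against 11.5% of the main arms. Within promoters the span had 131.9 calls per 100 kb against 47.9 on the main arms, a ratio of 2.75, and outside promoters 33.4 against 19.1, a ratio of 1.75. Both kinds of sequence in the complex thus held more calls per length than the same kind elsewhere.

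Of the 19 promoter summits, 12 lay upstream of the TSS and 7 at or downstream of it, so 63.2% were upstream, against 48.3% of all promoter summits. The median offset was -21 bp in the span and 7 bp over all promoter summits, with negative values upstream. Calls often came in close pairs, as 10 of the 30 had another summit within 250 bp, or 33.3%, against 17.8% of all pooled calls. Calls were 440 bp wide, and merging those that overlapped left 23 regions. The longest stretch with no pooled summit was 5655 bp, between 26029830 by m5 and 26035485 upstream of m7. It contains m6, whose nearest pooled summit was 2574 bp downstream of its TSS.

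**Figure D2:**
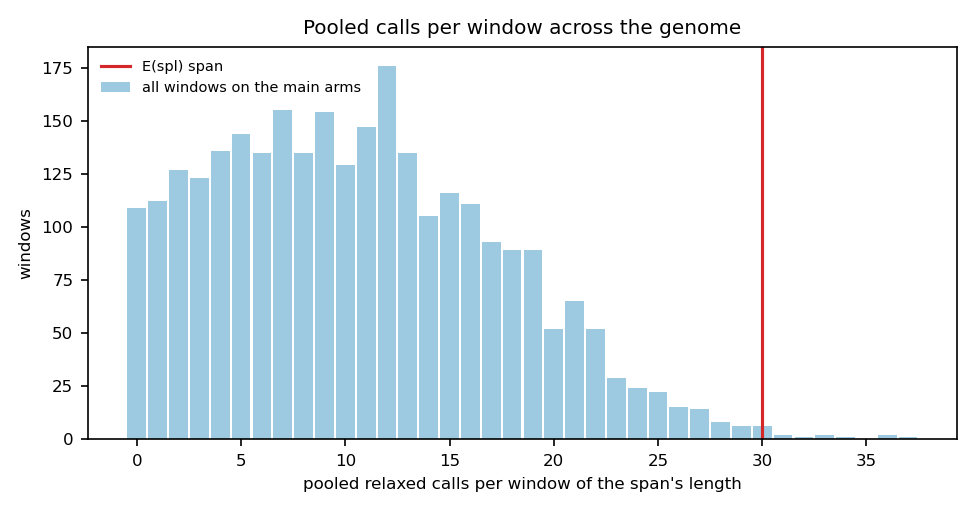
Number of windows (vertical axis) by the count of pooled calls they hold (horizontal axis), over 2822 consecutive windows of the span's length on the 6 main arms, with the span as a red line. The span, at 30 calls, lies in the far right tail, where 15 windows reach at least that count.

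Every member had a pooled call within 1 kb of its TSS, 10 of 10, where 60.0% of all protein-coding genes had one. For an optimal peak the count was 2 of 10, m7 and mdelta, where 8.73% of all genes had one. A pooled call with a q-value under 0.05 lay by 5 of 10 members (mdelta, m2, m3, m5 and m7), where 18.2% of all genes had one. A call in each of the 3 replicate lists was found by 6 of 10 members, where 36.8% of all genes had one. The members' strongest pooled signals had a median of 58.6 and ranged from 35.7 to 126. Over all 13945 genes the median was 31.7, and over the 8369 genes with a call it was 46.0. All 10 members were above the first of these medians and 7 were above the second. Neighbouring members can lie within reach of the same call, so they are not independent observations.

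The strongest call by a member lay 349 bp upstream of m7, at 26036689, in a peak from 26036469 to 26036908 with a pooled signal of 126. It ranked 659 of 1471 optimal peaks, and 95.7% of protein-coding genes had a lower strongest signal. Its replicate calls had signals of 42.6, 59.5 and 25.4 in replicates 1, 2 and 3, ranks 887, 412 and 1755 of 30000. Divided by the median signal of the same library at all optimal peaks (47.0, 47.8 and 33.1), these gave relative signals of 0.906, 1.24 and 0.769, with a mean of 0.973 ± 0.244 (SD, n = 3). Binding upstream of m7 was thus about as strong as at the median optimal peak, highest in replicate 2 and lowest in replicate 3. In replicate 3 the call fell outside the 1471 strongest. A second pooled summit lay 145 bp upstream of the m7 TSS, with a signal of 66.7 and rank 2867. In replicate 2 it was a call of its own, with a relative signal of 1.10, whereas in replicates 1 and 3 the same call lay within 200 bp of both summits.

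Among calls nearest to a member's TSS, that of m3 came next. Its strongest pooled call, 485 bp upstream at 26021338, had a signal of 80.4 and rank 1832, just outside the optimal list, whose lowest signal was 88.6. Among all annotated genes its summit lay nearest to a noncoding RNA, lncRNA:CR43644. Within 1 kb of the m3 TSS the strongest replicate calls had relative signals of 0.662, 0.738 and 0.701 in replicates 1, 2 and 3, a mean of 0.700 ± 0.0380 (SD, n = 3). Of the 6 members with a call in all replicates, m3 had the smallest SD of these strongest calls. At the pooled summit itself, within 200 bp, the values were 0.662, 0.738 and 0.542, a mean of 0.647 ± 0.0986 (SD, n = 3). The strongest summits lay 334 and 482 bp upstream in replicates 1 and 2 and 310 bp downstream in replicate 3. The m3 promoter held 3 pooled summits, more than any other member's had within 1 kb.

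At the left end of the complex, the optimal peak from 25996428 to 25996867 had its summit 973 bp upstream of mdelta, at 25996648. It lay nearer to CG43116, a gene on the opposite strand, 348 bp downstream of its TSS and in its intron. Its pooled signal was 91.2, rank 1365, close to the lower end of the optimal list. The calls within 200 bp had relative signals of 0.732, 0.563 and 0.914 in replicates 1, 2 and 3, a mean of 0.737 ± 0.176 (SD, n = 3). The summits in replicates 1 and 3, at 25996547 and 25996504, were farther from mdelta than the pooled summit and just outside 1 kb of its TSS. Within 1 kb, mdelta had weaker calls, with relative signals of 0.316, 0.563 and 0.487, a mean of 0.455 ± 0.127 (SD, n = 3). The strongest replicate 1 and 3 calls of this peak are therefore not counted among the mdelta values.

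The m5 gene had a pooled call 95 bp upstream of its TSS, at 26029830, with a signal of 65.1 and rank 3037. Within 200 bp of that summit the relative signals were 0.244, 0.360 and 0.593 in replicates 1, 2 and 3, a mean of 0.399 ± 0.178 (SD, n = 3). Replicate 1 had a stronger call, 0.365, at 125 bp downstream of the TSS, so that the strongest calls within 1 kb averaged 0.440 ± 0.133 (SD, n = 3). The mgamma gene had its strongest call 163 bp downstream of the TSS, with a signal of 56.1 and rank 4450. Replicate 3 had a call there with a relative signal of 0.588, replicate 1 had its only call within 1 kb at 464 bp downstream with 0.432, and replicate 2 listed none within 1 kb. The mbeta gene had a call 471 bp upstream, with a signal of 42.7 and rank 9292. Replicate 3 had a call at nearly the same place with a relative signal of 0.657, replicate 2 had one at 0.289 near the same place and its strongest 979 bp downstream at 0.322, and replicate 1 listed none. Replicate 2 thus lacked a call at mgamma and replicate 1 at mbeta.

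The m8 gene, whose truncated form underlies the classical E(spl)D mutation, had the lowest signal of the 10. Its strongest pooled call lay 21 bp upstream of the TSS, with a signal of 35.7, about that of the median pooled call, and rank 14885. Within 200 bp of that summit replicate 1 had a call with a relative signal of 0.247 and replicate 2 one with 0.569, and replicate 3 listed none. The strongest calls within 1 kb of the TSS had 0.303, 0.569 and 0.330 in replicates 1, 2 and 3, a mean of 0.401 ± 0.146 (SD, n = 3), and lay 413 bp downstream, 27 bp upstream and 813 bp upstream.

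Among the Bearded family members, m2 had the highest pooled signal, 61.1 at rank 3556, at a summit 16 bp upstream of its TSS. Replicate 2 had a call 36 bp upstream with a relative signal of 0.654, replicate 1 had one near the same place at 0.238 and its strongest 696 bp upstream at 0.313, and replicate 3 listed none within 1 kb. The malpha call lay 122 bp upstream of the TSS with a signal of 46.5, rank 7391. Its relative signal was 0.639 in replicate 1, where it ranked 1959, and 0.373 in replicate 2, with none listed in replicate 3. The m4 call lay 26 bp downstream of the TSS with a signal of 45.7, rank 7753. It had relative signals of 0.330, 0.513 and 0.653 in replicates 1, 2 and 3, a mean of 0.499 ± 0.162 (SD, n = 3). No Bearded family member had a call among the 1471 strongest of any replicate.

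The median strongest pooled signal was 65.1 over the 7 bHLH members and 46.5 over the 3 Bearded family members, with ranges of 35.7 to 126 and 45.7 to 61.1 that overlap. In order of pooled signal the members ran m7, mdelta, m3, m5, m2, mgamma, malpha, m4, mbeta and m8. The place of mdelta rests on the peak that lies nearer to CG43116, and its value also enters the bHLH median. The pooled list gives 1 value per member, so the error of its order is unknown. Among the 6 members with a call in every replicate, taking the strongest within 1 kb, m7 had the highest mean relative signal and m3 the second highest. The lowest m7 value, 0.769, was above the highest m3 value, 0.738. The m3 values were in turn all above the highest values of m4, m5, mdelta and m8 (0.653, 0.593, 0.563 and 0.569), and those 4 overlapped one another. That separation of m3 rests on the 1 kb window. Within 200 bp of the m3 pooled summit replicate 3 had 0.542, below each of those 4 highest values.

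**Figure D3:**
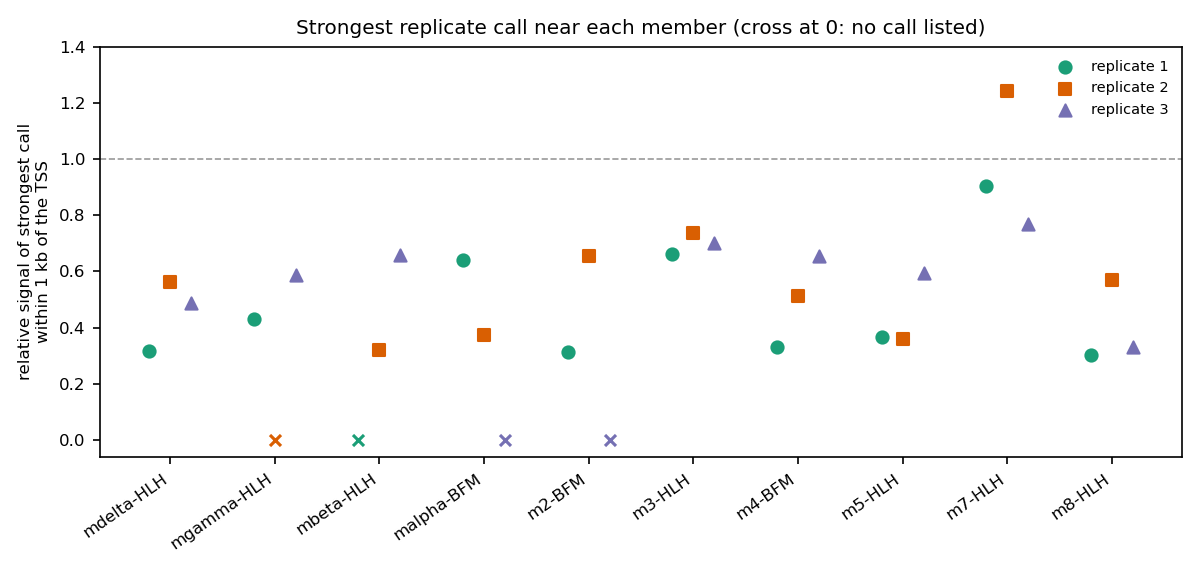
Relative signal of the strongest call within 1 kb of each member's TSS (vertical axis) in replicates 1, 2 and 3, with members in chromosomal order. A relative signal of 1 (dashed line) is the median of that library at all optimal peaks, and a cross at 0 marks no listed call. The m7 values lie highest, m3 has the narrowest spread, and mgamma, mbeta, malpha and m2 each lack a call in 1 replicate.

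The replicates also differed in their calls by the members. Replicates 1 and 2 each had a call by 9 of the 10 members and replicate 3 by 8, where 57.3%, 59.5% and 58.5% of all protein-coding genes had one in replicates 1, 2 and 3. Among the 6 members with a call in all 3, replicate 2 was highest at 4 and replicate 3 at 2, whereas replicate 1 was highest at 0 and lowest at 4. Protein-coding genes with a call had a median strongest signal of 17.2, 21.7 and 16.1 in replicates 1, 2 and 3. Set against the library medians at optimal peaks (47.0, 47.8 and 33.1), that was also lowest in replicate 1. The low place of replicate 1 was thus not particular to the members. Calls among the 1471 strongest of a library lay by 1 member (m7) in replicates 1 and 2 and by 0 members in replicate 3. Over all protein-coding genes the share with such a call was 8.74%, 8.43% and 8.91% in replicates 1, 2 and 3, so counts of 1 and 0 in 10 are near the background.

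Agreement for the span as a whole was also partial. Of its 3 optimal peaks, 1 was matched within 200 bp among the 1471 strongest calls of all 3 replicates, that of gro, beside 43.4% of all optimal peaks. The CG43116 peak missed that set in replicate 2 and the m7 peak in replicate 3. Of the 30 pooled calls, 10 had a call of any strength within 200 bp in all 3 replicate lists, beside 20.6% of all pooled calls. Another 10 had one in 2 replicates, 9 in 1 and 1 in none. Some of these 30 are close pairs that share a replicate call, as at m7 and m3, so the counts are not of independent sites.

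**Figure D4:**
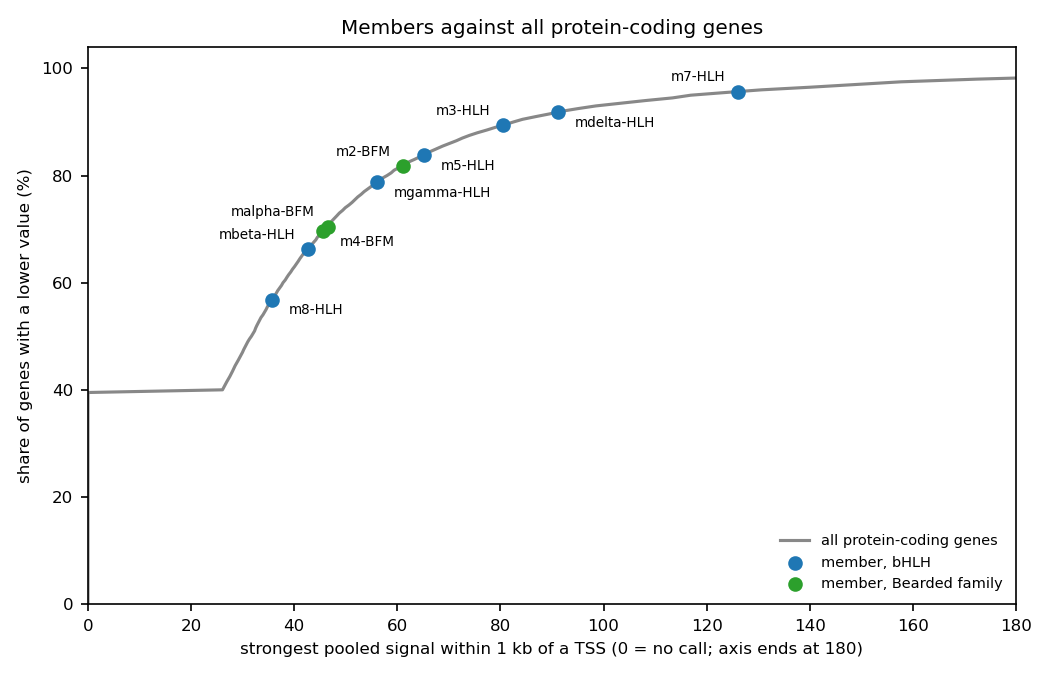
Strongest pooled signal within 1 kb of a TSS (horizontal axis, 0 for no call) against the share in percent of protein-coding genes with a lower value (vertical axis), with the 10 members marked on the line of all 13945 genes. Members spread from m8, above 56.8% of genes, to m7, above 95.7%.

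The genes of the span that are not members included its strongest peak. The gro peak had its summit at 26042544, 97 bp upstream of an internal TSS at 26042641, in an intron of longer gro transcripts, with a signal of 162 and rank 339 of 1471. Its relative signals were 1.36, 0.932 and 1.32 in replicates 1, 2 and 3, a mean of 1.20 ± 0.237 (SD, n = 3), and it was within 15 bp of the pooled summit in each. A second gro call, 14 bp upstream of the first TSS, had a signal of 78.5, rank 1940, and a mean relative signal of 0.641 ± 0.0557 (SD, n = 3). The ranges of the gro peak and the m7 peak overlapped, as replicate 2 had m7 higher (1.24 against 0.932) and the other libraries had gro higher. Kaz-m1 had a pooled call of signal 32.6, with a replicate call in replicate 3 only. E(spl)m6-BFM was the protein-coding gene of the complex with no pooled call within 1 kb. It had weak calls in replicates 1 and 3, with relative signals of 0.277 and 0.341.

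Over the 3 libraries, the optimal peaks whose relative signals were most like those of the gro peak were nearest to Alh, Nsun5 and Evi5, at distances of 0.02, 0.11 and 0.11 (Euclidean, log2 scale). For the m7 peak, a comparison added after its values were seen, they were nearest to RpL19, aop and Scr, at distances of 0.13, 0.14 and 0.16. Summit offsets from the named TSS were -547, -121 and 4640 bp for Alh, Nsun5 and Evi5. They were -26, -3509 and 7618 bp for RpL19, aop and Scr. Evi5, aop and Scr are thus named only as the nearest TSS. With 3 values per peak these comparisons are descriptions of pattern only.

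Genes of the Notch pathway outside the complex, and gro itself, were counted in the same way. Of 19 core genes, 19 had a pooled call within 1 kb and 3 had an optimal peak, with a median strongest pooled signal of 55.3. These 3 were gro, aph-1 (a gamma-secretase subunit) and nej (the histone acetyltransferase CBP). The aph-1 promoter had a peak 272 bp upstream with a signal of 149 and a close second summit, and relative signals of 1.51, 1.24 and 0.518 in replicates 1, 2 and 3. The nej gene had peaks 408 and 684 bp upstream of its start sites, with signals of 105.4 and 102.6, and the first had no call within 200 bp in replicate 2. In the Bearded complex on 3L, 4 of 4 matched genes had a pooled call, and Tom had an optimal peak 146 bp downstream of its TSS where the pooled signal was 105.6 and the mean relative signal 0.861 ± 0.228 (SD, n = 3). In the achaete-scute complex 3 of 4 genes had a pooled call and 0 had an optimal peak. Of 11 other bHLH, proneural and related genes, 10 had a pooled call and 1 had an optimal peak, ato, which encodes a proneural bHLH protein, at 386 bp upstream, where the pooled signal was 110.4 and the mean relative signal 0.917 ± 0.249 (SD, n = 3). Optimal peaks thus lay by 20% of the E(spl) members, 15.8% of the core genes, 25% of the Bearded complex genes, 0% of the achaete-scute genes and 9.09% of the last list, beside 8.73% of all protein-coding genes. Pooled calls lay by 100%, 100%, 100%, 75% and 90.9% in the same order, beside 60.0% of all genes. The lists are short, and 1 gene is 25% of the Bearded complex list and of the achaete-scute list.

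The 14 words were searched on both strands within 50 bp of each summit and in promoter windows from 250 bp upstream to 50 bp downstream of each TSS. For Su(H) these were GTGGGAA and the variants GTGTGAA plus GTGAGAA. For Hairy and E(spl) proteins they were the E box CACGTG, the class C form CACGCG and the N box form CACNAG. For proneural proteins they were the E boxes CAGCTG, or with another centre CAGGTG, or else CAGATG. The remaining words were CAGGTAG for Zelda, TATCGATA for DREF, GAGAGAG for GAGA factor, AGGTGGCG for CTCF and TATAAA for the TATA box. The words were counted separately, and different words may overlap in a window.

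In the member promoters, TATAAA was in 8 of 10, or 80%, against 45.8% of all promoter windows. GTGGGAA was in 3 of 10, those of m4, m5 and m8, or 30%, against 3.59%. CACNAG was in 5 of 10, or 50%, against 29.7%, and the m8 sequence printed above holds 3 copies of it. CACGTG was in 2 of 10 (mdelta and m7) against 4.20%, CAGGTG in 2 (m4 and m7) against 9.31%, and GAGAGAG in 2 (m7 and mbeta) against 5.87%. CAGCTG was in 1 of 10 against 17.7% and CAGATG in 1 against 11.3%. Another 4 words were in 0 of 10. They were TATCGATA (DREF, 9.36% of all windows), CACGCG (class C, 6.12%), GTGTGAA (Su(H) variant, 4.68%) and AGGTGGCG (CTCF, 0.688%). With 10 promoters, counts of 0 or 1 at such shares are too few to read a depletion from. GTGAGAA was in 1 against 2.95% and CAGGTAG in 1 against 1.64%. Over the 250 bp upstream of the TSS, m7, the member of highest signal, held 6 word matches and m8, the member of lowest signal, held 7.

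None of the 14 words lay within 50 bp of any of the 3 optimal summits. Over all 1471 optimal summits each word was found at between 0.884% (AGGTGGCG) and 12.98% (TATAAA), so 3 summits are too few to read an absence from. Within 100 bp, CAGGTG and TATAAA were each found at 1 of the 3, against 7.27% and 23.1% of all optimal summits. The CAGGTG copies printed for the m7 region start at 26036808 and 26036906. Both lie more than 100 bp from the m7 optimal summit, so neither is that match. At the 30 pooled summits of the span CAGGTG was found at 5, or 16.7%, against 5.17% of all pooled summits. TATAAA was also found at 5, against 9.11%, and CACGTG at 2, or 6.67%, against 1.42%. The proneural form CAGATG was found at 1, or 3.33%, against 4.96%, the Zelda word CAGGTAG at 1 against 0.897% and the GAGA word GAGAGAG at 1 against 1.70%. The other 8 words were found at 0, of which CACNAG, against 13.9% of all pooled summits, and CAGCTG, against 6.06%, have the highest shares elsewhere. The remaining 6 of those 8 were each at under 3% of all pooled summits. The second m7 summit had CAGGTG and GAGAGAG within 50 bp, and the m5 summit had CAGGTAG. Summit windows of close pairs overlap, so a single copy of a word can count for both calls, and each match is a description of the letters only.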

How the data were processed

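Peak lists were analysed from ChIP-seq of 3 libraries of 2 to 4 h Neu2-GFP embryos. Per the text deposited beside the files, the authors called peaks against a control on the dm6 build, made relaxed lists of peaks and background as IDR input for each replicate and for the pooled replicates, and an optimal list of peaks past their IDR threshold. Lists on dm3 were not used, nor was the control analysed here. The aligner, the peak caller and the IDR threshold are not given in the sources used here. The deposited signal of each call is the authors' own value and served to describe and rank calls of the same list. The −log10 q-value deposited with each call was used only to count calls with q under 0.05. The summit offset deposited by the authors, another measure in bp, gave the summit, printed 1-based. The lists hold no read counts, so depth is unknown and no interval that needs it is given.

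Genes came from Ensembl release 115 (BDGP annotation 6.54), on 6 main arms. Each replicate list was searched for the strongest call within 200 bp of an optimal or pooled summit, or within 1 kb of a TSS. Relative signal is a replicate's signal over its own median at the 1471 optimal peaks. Scripts (Python 3.11.15, numpy 2.4.6, pandas 2.3.3) were tested on simulated data. With 1 group no test between groups was made. Members and lists were chosen with earlier results of these data known. The rule for naming genes took all members, every protein-coding gene of the span, listed Notch and neurogenic genes with an optimal peak within 1 kb, and 3 most alike peaks. Of 7 listed Bearded complex names, 2 had no match in the annotation and 2 named the same gene. Alternatives were other flanks, TSS windows, matching distances, stricter peak sets, whole relaxed lists, ranks in place of relative signal, wider word windows and leaving out each replicate.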

Additional observations from a re-analysis of the deposited data

How the results depend on the processing

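Leaving aside words and ranks, 57 alternative values stayed within 1.5 times the reported count, or within 1 SD, in 40 cases and moved in 17. The cause was not tested where the construction does not show it. The 3 optimal peaks of the span became 1 with no flank, since those of CG43116 and gro lie in the flanks, and 1 when a match in all 3 replicates was required. They ranged from 1 to 2 when each replicate was left out, with the peaks kept only if matched in both of the others, and 1 remained without replicate 1. Keeping only the 9999 pooled calls of highest signal, an alternative chosen after seeing the data, left 18 of 30 pooled calls. That setting shortens the list by construction, from 29995 calls on the main arms, and the span kept a larger share than the list did. The 2 members by an optimal peak became 1 within 500 bp, 1 when the nearest TSS alone counted and 0 when a match in all 3 replicates was required, and ranged from 0 to 1 when each replicate was left out (0 without replicate 1). The share of all protein-coding genes under these settings is not given here, so these counts have no background. Of all optimal peaks, 43.4% were matched in all 3 replicates. The 1 optimal peak matched in all replicates became 3 against the whole relaxed lists, and 1 to 2 when each replicate was left out. Within 100 bp the relative signal of the CG43116 peak fell to 0.459, because replicates 1 and 3 had summits farther away. By mean rank among 30000 calls, a unit that cannot be set against relative signal, the peaks kept the order gro, m7 and CG43116, at 554.3, 1018 and 2195. With a match in all 3 replicates required, optimal peaks lay by 1 Notch core gene instead of 3, by 0 Bearded complex genes instead of 1 and by 0 other bHLH, proneural and related genes instead of 1. These counts too have no share of all protein-coding genes beside them, so no loss particular to the lists is read from them. Searching words within 100 bp of the pooled summits gave GTGGGAA at 3 (10% of the 30, against 2.65% of all pooled summits), GTGAGAA at 1 (3.33% against 2.05%), CACGTG at 4 (13.3% against 2.86%), CACNAG at 5 (16.7% against 26.1%), CAGCTG at 1 (3.33% against 11.6%), CAGGTAG at 3 (10% against 1.68%) and TATAAA at 10 (33.3% against 17.0%). These 7 of 14 counts moved by over 1.5 times, and CACNAG and CAGCTG stayed below their share over all pooled summits. At the 3 optimal summits 2 of 14 words moved, CAGGTG and TATAAA, each found at 1 instead of 0. No paired analysis was possible because there was 1 group of libraries.

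The relaxed lists hold background by design, so a call listed there, such as those of m8 and m4, is not by itself a peak, and depth per library is unknown. The optimal list was made by the authors from all 3 libraries, so leaving out a replicate filters its peaks and does not remake it.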
